A study of Mus musculus with 6 samples.

Results

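The 4 ligand genes of the platelet-derived growth factor (PDGF) family, Pdgfa, Pdgfb, Pdgfc and Pdgfd, and the beta receptor gene Pdgfrb were followed in cultured neural stem cells and progenitors of adult mice with and without active SIRT1. The 5 genes were taken by symbol from the probe sets that the platform annotation pairs with a single gene. Each of them has 1 such probe set, so they are 5 of the 19937 genes measured. None was chosen for its values.

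Expression was read on 1-colour Affymetrix whole-transcript arrays from 6 cultures, 3 per genotype. Control cultures came from Sirt1lox/lox mice, whose Sirt1 alleles are floxed but which carry no Cre. The other cultures came from NestinCre;Sirt1lox/lox mice, in which Cre under the Nestin promoter, active in neural stem and progenitor cells, acts on the same alleles, and they are called Sirt1 inactive here. All mice were of the 129SV strain and 8 weeks old, and all cells were grown with EGF and bFGF, first as neurospheres and then attached, and taken while proliferating at passage 2. PDGF was not named among the growth factors of the medium. The titles call the samples biological replicates, the sources used here do not say how many mice stand behind each, and an effect of Cre itself cannot be told apart from that of SIRT1. Values are log2 RMA values, a normalized measure of probe set brightness in which 1 unit is a doubling. Array medians lay between 7.36 and 7.39.

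PDGF ligands are secreted dimers that bind receptor tyrosine kinases on neighbouring cells. PDGF-A and PDGF-B are cut to their active form inside the cell by furin-like proteases, whereas PDGF-C and PDGF-D leave the cell with an inhibitory CUB domain that extracellular proteases remove. PDGF-A and PDGF-C act mainly through the alpha receptor and PDGF-B and PDGF-D through the beta receptor. In brain, PDGF-A keeps oligodendrocyte progenitors, which carry the alpha receptor, dividing, and PDGF-B from endothelium recruits pericytes, which carry the beta receptor.

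Of the 11 measured neural stem cell markers 10 were brighter than the median probe set, up to percentile 96.9 for Sox2, a stem cell transcription factor gene, with Prom1 the exception at percentile 40.6. So were 13 of 15 oligodendrocyte progenitor markers and 11 of 12 astrocyte markers, but 1 of 13 endothelial and 1 of 12 microglial markers. Probe brightness differs between probe sets of equal RNA, so these counts do not give the makeup of the cultures. Sirt1 itself differed by -0.41 (SE 0.08, 95% interval -0.58 to -0.23), from 8.55 to 8.78 in control to 8.25 to 8.33 in Sirt1 inactive. That difference did not pass over all probe sets (limma, adjusted p = 0.959), and the sources used here do not name the floxed exons. Control replicate 3 stood farthest from the rest: its median absolute distance from their mean was 0.117, against 0.059 to 0.089 for each other array, so values that turn on it are also given without it.

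None of the ligand genes, nor Pdgfrb, passed the test between the genotypes. At a Benjamini-Hochberg adjusted p under 0.05 (limma over 22961 probe sets), 0 of 5 members passed, and so did 0 of all probe sets (0%). At an unadjusted p under 0.05, 0 of 5 members passed, where the share over all probe sets was 3.61%. The groups overlapped for all 5 members, whereas they did not overlap for 9.33% of all probe sets, 2.62% with Sirt1 inactive higher and 6.71% with it lower. The median difference of the members was -0.02, equal to the -0.02 of all probe sets tested. With Sirt1 inactive minus control, 2 members lay above 0 and 3 below. With array medians subtracted, 3 lay above. Without control replicate 3, all 5 lay below 0, and without Sirt1 inactive replicate 2, all 5 lay above.

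**Figure D1:**
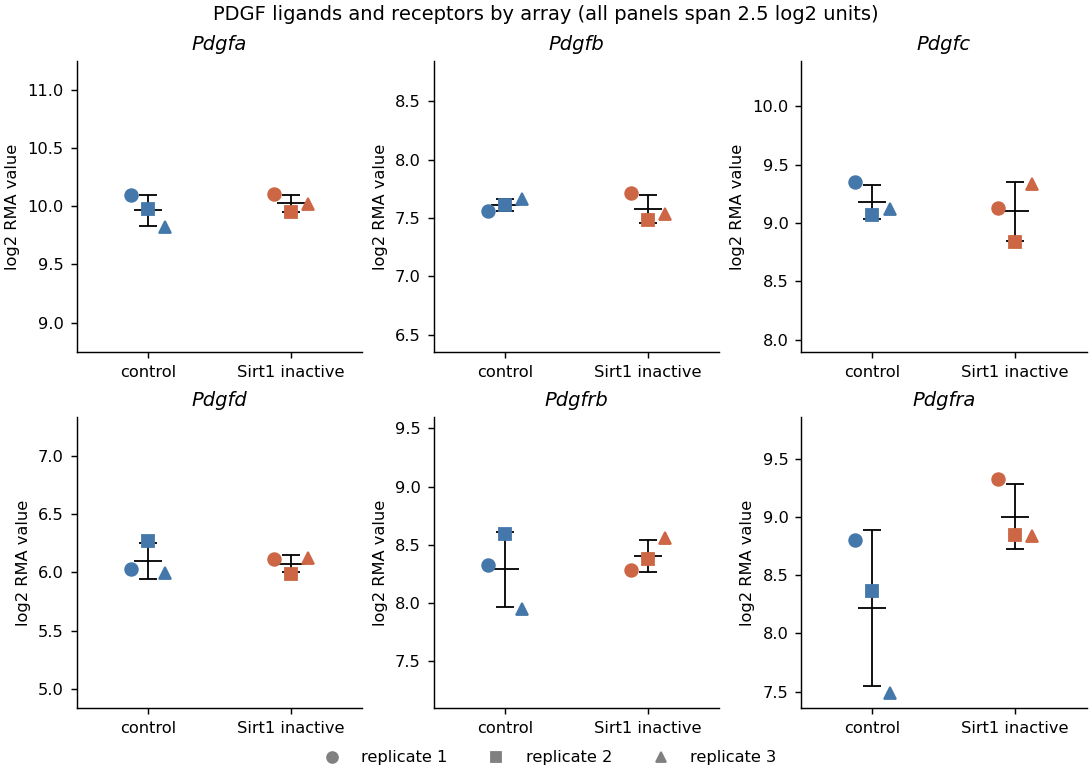
Log2 RMA value of each PDGF ligand gene, of Pdgfrb and of Pdgfra on every array, by genotype (3 arrays each; symbols give the replicate number, bars the mean and SD). The genotypes overlap for the 4 ligands and Pdgfrb, and Pdgfra of control replicate 3 is the lowest of its panel at 7.49.

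Pdgfa encodes the ligand that drives oligodendrocyte progenitors through the alpha receptor. Its control arrays read 10.09, 9.98 and 9.82, and its Sirt1 inactive arrays 10.10, 9.95 and 10.02. The highest values of the genotypes were alike, both in replicate 1, and only control replicate 3 fell below the Sirt1 inactive arrays. The means were 9.96 ± 0.14 and 10.02 ± 0.07 (SD, n = 3), a difference of 0.06 (SE 0.08; limma, adjusted p = 0.959). The 95% interval ran from -0.14 to 0.26, or from 0.909 to 1.20 times control, and the exact two-sided permutation test gave p = 0.6, where 3 against 3 arrays cannot go below 0.1. Without control replicate 3 the difference was -0.01. Pdgfa was bright among probe sets, with a mean above 82.6% of those tested.

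Pdgfc encodes the other ligand that acts mainly through the alpha receptor. Control arrays read 9.35, 9.07 and 9.12 and Sirt1 inactive arrays 9.13, 8.83 and 9.34, so that Sirt1 inactive replicate 2 was the lowest of all and replicate 3 of the same genotype nearly the highest. The means were 9.18 ± 0.15 and 9.10 ± 0.25 (SD, n = 3). The difference was -0.08 (SE 0.14, 95% interval -0.40 to 0.24; limma, adjusted p = 0.965), which leaves levels of 0.756 to 1.18 times control within the interval. Pdgfc had the widest spread of the 4 ligands, with a range of 0.50 among Sirt1 inactive arrays and 0.28 among control arrays. Its same-numbered arrays differed by -0.22, -0.24 and 0.22. With the replicate number as a block and both arrays of number 3 left out, the difference was -0.23 (unadjusted p = 0.0124), which did not pass over all probe sets (limma, adjusted p = 0.40).

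Pdgfb encodes the ligand that binds the beta receptor most strongly and that endothelial cells are known to supply. Control arrays read 7.56, 7.62 and 7.67 and lay inside the range of the Sirt1 inactive arrays, which read 7.71, 7.49 and 7.54. The means were 7.62 ± 0.05 and 7.58 ± 0.12 (SD, n = 3). The difference was -0.04 (SE 0.08, 95% interval -0.22 to 0.14, or 0.860 to 1.10 times control; limma, adjusted p = 0.970). The 13 measured endothelial markers stood between percentile 13.5, for Slco1a4, and 58.4, for Flt1, and the means of the list ran from 6.73 to 6.81 in control and from 6.76 to 6.80 in Sirt1 inactive. Which cells of the cultures supplied its signal was not tested.

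Pdgfd encodes the second ligand of the beta receptor and was dim, at percentile 20.4 of all probe sets. Control arrays read 6.02, 6.27 and 5.99 and Sirt1 inactive arrays 6.11, 5.99 and 6.12. Control replicate 2 was the highest array, and the other 5 lay within a range of 0.13. The means were 6.10 ± 0.15 and 6.07 ± 0.07 (SD, n = 3), a difference of -0.02 (SE 0.09, 95% interval -0.23 to 0.19; limma, adjusted p = 0.984). With array medians subtracted it was 0.0015. RMA compresses differences of dim probe sets, and the deposited values hold no measure of background with which to set a floor for Pdgfd.

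Pdgfrb, the receptor by which pericytes and other mural cells answer PDGF-B, varied most of the 5 genes. Control arrays read 8.33, 8.59 and 7.95 and Sirt1 inactive arrays 8.28, 8.38 and 8.56, so the control cultures held both the highest and the lowest value. The means were 8.29 ± 0.32 and 8.41 ± 0.14 (SD, n = 3), a difference of 0.12 (SE 0.16, 95% interval -0.26 to 0.49; limma, adjusted p = 0.959). The interval holds levels from 0.834 to 1.41 times control, and the exact permutation test gave p = 0.7. Control replicate 3 set the sign: without it the difference was -0.05, and without control replicate 2 it was 0.27 (unadjusted p = 0.101; limma, adjusted p = 0.846). Same-numbered arrays differed by -0.04, -0.22 and 0.60.

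The other PDGF receptor gene gave a wider gap. Pdgfra, the alpha receptor of oligodendrocyte progenitors, read 8.80, 8.36 and 7.49 in control and 9.33, 8.85 and 8.84 in Sirt1 inactive, a difference of 0.79 (SE 0.32) that did not pass either (limma, adjusted p = 0.959) and was 0.42 without control replicate 3. To ask whether Pdgfra and the members differed unequally, the log2 value of each member was subtracted from that of Pdgfra on every array, a comparison added after the gap of Pdgfra was seen. The change of Pdgfra exceeded that of the member by 0.73 for Pdgfa, 0.83 for Pdgfb, 0.87 for Pdgfc, 0.81 for Pdgfd and 0.67 for Pdgfrb, each in 3 of 3 same-numbered pairs. Pdgfra alone was higher in these pairs by 0.53, 0.49 and 1.35. All 5 comparisons share its values, so they are not independent of each other. For Pdgfrb the excess within pairs was 0.57, 0.70 and 0.75. Exact two-sided permutation tests over the arrays, which do not use the pairs, gave p = 0.1 for Pdgfa, Pdgfb and Pdgfc, 0.2 for Pdgfd and 0.3 for Pdgfrb (0.17, 0.25 and 0.30 adjusted over the 5 comparisons). With 3 against 3 arrays this test cannot go below 0.1, so it decides nothing at 0.05 either way. Without control replicate 3 the excess of Pdgfra lay between 0.43 and 0.53.

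Markers of the cell types that such cultures can hold gave no call. In the 6 lists 0 markers passed (limma, adjusted p under 0.05). An unadjusted p under 0.05 was reached by 3.61% of all probe sets (0.984% higher and 2.63% lower). It was reached by 5 of 15 oligodendrocyte progenitor markers (4 higher, Pdgfra among them, and 1 lower) and 2 of 12 astrocyte markers (1 higher and 1 lower). So it was by 0 of 11 neural stem cell markers, 3 of 13 neuroblast and neuron markers and 1 each of 12 microglial and 13 endothelial markers, all of them lower. The lists were chosen with earlier results of these data known, so these counts are no independent test. The shares below 0 were 66.7% for oligodendrocyte progenitors, 25% for astrocytes, 45.5% for stem cells, 69.2% for neuroblasts and neurons, 91.7% for microglia and 53.8% for endothelium, against 60.1% of all probe sets. The median differences were -0.09 for oligodendrocyte progenitors, 0.13 for astrocytes, 0.0015 for stem cells, -0.20 for neuroblasts and neurons, -0.07 for microglia and -0.02 for endothelium. Without control replicate 3 they were 0.02, 0.0099, 0.0039, -0.08, -0.07 and -0.03. The part of these cells in the levels of the ligands was not tested.

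**Figure D2:**
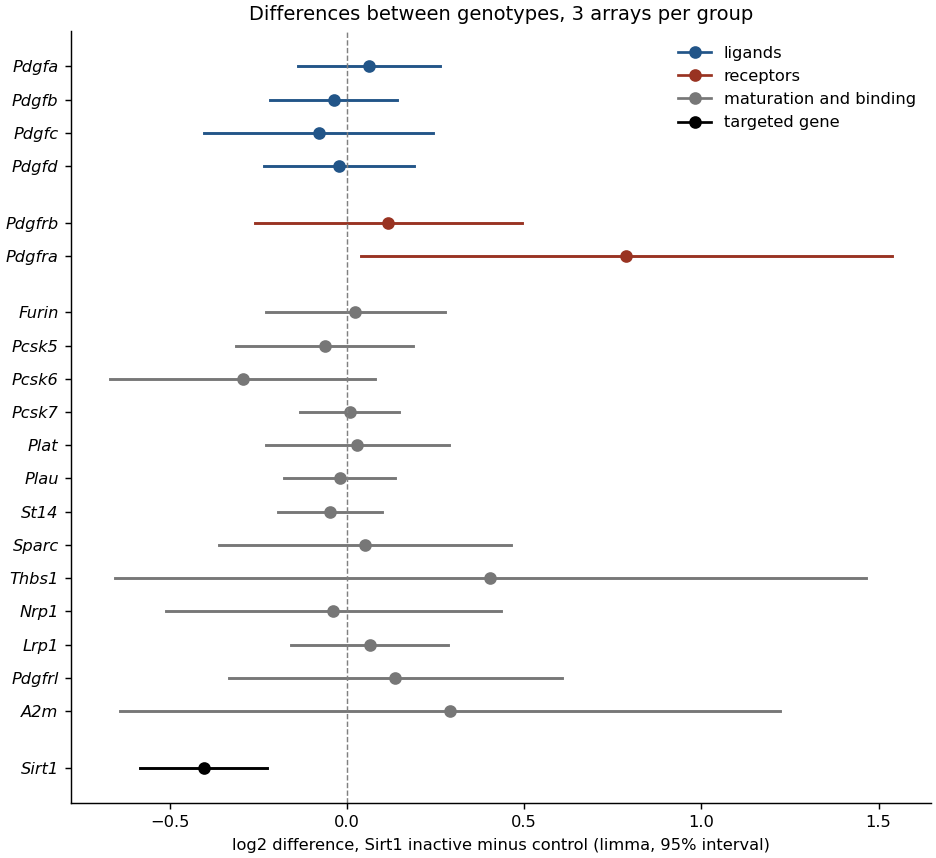
Log2 difference, Sirt1 inactive minus control, with limma's 95% interval, for the PDGF ligands, both receptors, 13 genes of ligand maturation and binding, and Sirt1 (3 arrays per group). The intervals of the 4 ligands and Pdgfrb include 0, and those of Pdgfra and Sirt1 do not, although neither passed over all probe sets.

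Genes that release or hold PDGF ligands gave no call either. All 13 listed genes were measured, 0 passed (limma, adjusted p under 0.05) and 0 reached an unadjusted p under 0.05, against 3.61% of all probe sets. Of the 13 genes, 8 lay above 0 and 5 below, with a median of 0.02 against -0.02 over all probe sets. Without control replicate 3 only 2 lay above 0, with a median of -0.08. Among the proprotein convertases that cut PDGF-A and PDGF-B, Furin differed by 0.02, Pcsk5 by -0.06 and Pcsk7 by 0.01. Pcsk6, a further convertase of this family, had the smallest p of the list. It read 9.15, 8.60 and 8.83 in control and 8.72, 8.33 and 8.65 in Sirt1 inactive, a difference of -0.29 (SE 0.16, unadjusted p = 0.106), and was lower in the Sirt1 inactive array of every same-numbered pair while the groups overlapped.

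Of the proteases that free PDGF-C and PDGF-D from their CUB domains, Plat, tissue plasminogen activator, was among the brightest genes of the cultures. It read 11.82, 11.58 and 11.37 in control and 11.63, 11.62 and 11.60 in Sirt1 inactive, a difference of 0.03 (SE 0.11). Plau, urokinase, differed by -0.02 (SE 0.07), and St14, matriptase, by -0.05 (SE 0.06). Of the proteins that bind PDGF or its receptors outside the cell, Sparc, a matrix glycoprotein, differed by 0.05, the coreceptor gene Nrp1 by -0.04 and the endocytic receptor gene Lrp1 by 0.06. Thbs1, a matrix glycoprotein, differed by 0.40, A2m, a protease inhibitor that carries growth factors, by 0.29 and the receptor-like gene Pdgfrl by 0.14. For these last 3 genes control replicate 3 was the lowest array, at 8.17 for Thbs1, 10.05 for A2m and 6.82 for Pdgfrl. The other control arrays read 9.64 and 9.56 for Thbs1, 11.78 and 11.38 for A2m and 7.65 and 7.39 for Pdgfrl. The Sirt1 inactive means were 9.53, 11.36 and 7.42, so without control replicate 3 all 3 differences lay below 0.

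Inside the cell, 28 of the 34 listed genes of PDGF receptor signalling were analysed here. None passed (limma, adjusted p under 0.05), 1 was higher and 0 lower at an unadjusted p under 0.05, against 0.984% and 2.63% of all probe sets. The 28 genes had a median of -0.04, with 20 below 0, or 71.4%, against 60.1% of all probe sets; with array medians subtracted these shares were 60.7% and 48.9%. The groups did not overlap for 4 of the 28, 1 higher and 3 lower, against 2.62% and 6.71% of all probe sets. Slc9a3r1, a scaffold that binds the tail of PDGF receptors, was the 1 that was higher. It read 10.53, 10.49 and 10.30 in control and 10.58, 10.63 and 10.65 in Sirt1 inactive, a difference of 0.18 (SE 0.08). The exchange factor gene Sos2 differed by -0.13, the regulatory subunit gene Pik3r1 of phosphoinositide 3-kinase by -0.11 and the kinase gene Src by -0.14.

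Among the 16 measured negative regulators of receptor tyrosine kinases 12 lay below 0, or 75%, against 60.1% of all probe sets (62.5% against 48.9% with array medians subtracted), with a median of -0.04. None passed (limma, adjusted p under 0.05), while 3 were lower at an unadjusted p under 0.05, as were 2.63% of all probe sets. Cblb, a ubiquitin ligase that sends receptors to degradation, read 9.66, 9.69 and 9.73 in control and 9.46, 9.55 and 9.53 in Sirt1 inactive, a difference of -0.18 (SE 0.06). The adaptor gene Grb10 read 8.77, 8.43 and 8.27 in control and 8.09, 8.14 and 8.21 in Sirt1 inactive, a difference of -0.35 (SE 0.12). Socs1, a suppressor of cytokine signalling, differed by -0.17 (SE 0.07), and Ptpn2, an intracellular tyrosine phosphatase, by 0.13. The groups did not overlap for Cblb, Grb10 and Socs1, 3 of 16 genes, where 6.71% of all probe sets did so in that direction.

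The early genes that growth factors such as PDGF induce showed no call. Of 15 genes 0 passed (limma, adjusted p under 0.05) and 0 reached an unadjusted p under 0.05, which 3.61% of all probe sets reached. Of the 15 genes 11 lay below 0, or 73.3%, against 60.1% of all probe sets, with a median of -0.04. Ier3 differed by 0.22, Myc by -0.11, Srf by -0.07 and the cyclin gene Ccnd1 by 0.05. The structural relatives of the PDGF ligands, the 5 VEGF family genes, had a median of -0.002, with 0 called and 0 at an unadjusted p under 0.05 (limma), and with Vegfd at -0.14, Pgf at 0.23, Vegfa at 0.05 and Vegfc at -0.03. Of the 6 related receptor kinase genes 0 passed and 1 reached an unadjusted p under 0.05 (limma), against 3.61% of all probe sets. Their median was 0.0085. Flt4 differed by -0.21 (unadjusted p = 0.032), Kit by 0.07, Flt3 by -0.05 and Flt1 by 0.15.

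No pair of members passed a test of correlation over the 6 arrays. Among the 10 pairs Pearson's r ranged from -0.47, for Pdgfb and Pdgfrb, to 0.69, for Pdgfd and Pdgfrb, and 8 were above 0. Without control replicate 3 they ranged from -0.61, for Pdgfa and Pdgfrb, which had 0.50 over all arrays, to 0.70. Exact permutation tests adjusted over 12 relations gave no p below 0.817 for these pairs. Pdgfa and Pdgfc, which act mainly through the alpha receptor, had r = 0.42 and rho 0.66 (exact permutation p = 0.40 and 0.18, adjusted 0.95 and 0.88). Without control replicate 3 and Sirt1 inactive replicate 1, the arrays farthest from the median of Pdgfa, their r was 0.87. Leaving out the arrays farthest for the first gene of each of the 10 pairs gave r from -0.85, for Pdgfb and Pdgfc, to this 0.87. So few arrays do not fix an r.

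Pdgfrb ran with the mean of mural cell and fibroblast markers, the only list whose correlation with it was computed. Its r with the mean of 22 such markers was 0.97 (exact permutation p = 0.0014, the smallest that 6 arrays can give, adjusted p = 0.017) and rho was 1.0 (exact permutation p = 0.0028, adjusted p = 0.033). Without control replicates 2 and 3, the arrays farthest from the median of Pdgfrb, r was 0.99. After subtraction of each genotype's mean it was 0.97, and without control replicate 3 alone 0.99. The markers ranged from a mean of 7.38 to 7.83 in control and from 7.68 to 7.79 in Sirt1 inactive, with a median difference of 0.04 and 14 of 22 above 0, or 10 of 22 without control replicate 3. None passed (limma, adjusted p under 0.05). At an unadjusted p under 0.05, 1 of the 22 was lower, as were 2.63% of all probe sets. It was Col1a1, a fibroblast collagen gene, with a difference of -0.15. Control replicate 3 was the lowest and control replicate 2 the highest array for both Pdgfrb and the list. The means of the astrocyte, neural stem cell and endothelial lists were also lowest in control replicate 3. Those of the oligodendrocyte progenitor, neuronal and microglial lists were not. Whether Pdgfrb followed any of these lists was not tested. In such bulk samples fewer cells of a type and less RNA per cell cannot be told apart, and the part of any mural or fibroblast cells in the level of Pdgfrb was not tested.

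The markers did not all follow Pdgfrb. Over the 6 arrays 15 of 22 had an r above 0 with Pdgfrb, and 4 had at least 0.9: Vtn, the matrix protein vitronectin of pericytes (0.99), Des, the muscle filament desmin (0.97), Anpep, an aminopeptidase of pericytes (0.94), and Postn, the fibroblast matrix protein periostin (0.93). Vtn read 9.23, 10.08 and 8.25 in control and 9.01, 9.46 and 9.98 in Sirt1 inactive, in the same order over the arrays as Pdgfrb. Without Vtn the r of the list was 0.95. The channel genes of brain pericytes Abcc9 and Kcnj8 had r of -0.65 and -0.59, and Higd1b, a further pericyte gene, -0.10. The strongest opposite course was that of Ndufa4l2, a mitochondrial gene of pericytes, at -0.91 with a range of 0.26. Cox4i2, Col1a1 and Lum also had an r below 0, at -0.54, -0.52 and -0.05, and stood at percentiles 44.8, 57.4 and 10.1. Abcc9, Kcnj8 and Higd1b stood at percentiles 27.6, 39.9 and 18.2 of all probe sets and ranged over no more than 0.15, 0.32 and 0.23 units. Anpep and Des, which followed Pdgfrb, were also dim, at percentiles 31.4 and 41.8, so brightness did not separate the markers. Among the 9 markers with a range of at least 0.5 units, 8 had their lowest value in control replicate 3; the 13 others had a mean that followed Pdgfrb with r = 0.39. Those named here for their r, beyond Vtn, were chosen after their values were seen.

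**Figure D3:**
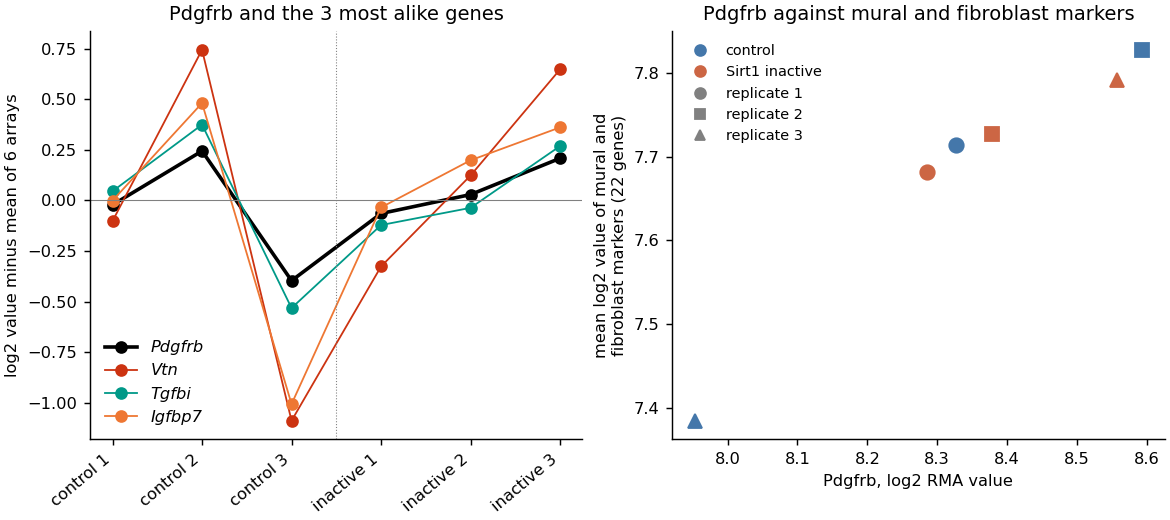
Left, log2 value minus the mean of the 6 arrays for Pdgfrb and the 3 genes most like it, with lines only to guide the eye; right, the mean of 22 mural and fibroblast markers against Pdgfrb, 1 point per array. Control replicate 3 is lowest and control replicate 2 highest on both sides, and the points rise together with r = 0.97.

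Among all genes of at least median brightness, the most like Pdgfrb in pattern were Vtn (r = 0.99, rho 1.0, 6 arrays), Tgfbi, a matrix protein induced by TGF-beta (r = 0.99, rho 0.94), and Igfbp7, a secreted binding protein of vessels (r = 0.98, rho 1.0). Igfbp7 read 10.84, 11.32 and 9.84 in control and 10.81, 11.04 and 11.20 in Sirt1 inactive. Like Pdgfrb, all 3 were lowest in control replicate 3. Their differences between genotypes were 0.30 for Vtn, 0.07 for Tgfbi and 0.35 for Igfbp7, against 0.12 for Pdgfrb. Without control replicate 3 all 3 differences lay below 0, as did that of Pdgfrb. With 6 arrays a high r is common by selection: 110 of the 19936 other genes had an r of at least 0.9 with Pdgfrb, or 0.552%, and no p is given for genes picked this way.

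The ligands had other companions. Pdgfa was most like Rhoc, a small GTPase gene (r = 0.996, rho 1.0), Il17rc, a receptor subunit gene (0.995, rho 0.89), and Ptpmt1, a mitochondrial phosphatase gene (0.995, rho 1.0), and 468 genes, or 2.35%, reached an r of 0.9 with it. Rhoc read 11.46, 11.21 and 10.89 in control and 11.48, 11.21 and 11.35 in Sirt1 inactive, falling in control replicate 3 as Pdgfa did. Pdgfb was most like Insyn1 (0.96), Vsig10 (0.96) and Mrpl30 (0.94), Pdgfc was most like Dtna, which encodes dystrobrevin alpha of the dystrophin complex (0.99), Sdf2 (0.99) and Pef1 (0.97), and Pdgfd most like the growth arrest RNA Gas5 (0.96), Syt4 (0.95) and Akap11 (0.93). Pdgfd had the fewest genes at an r of at least 0.9, 29 or 0.145%, against 195 for Pdgfb and 180 for Pdgfc. Pdgfra was most like Cbs (0.99), Clybl (0.98) and Gpd2 (0.98). The r of Pdgfb with the mean of the 13 endothelial markers was 0.11 over all arrays (rho 0.14, exact permutation p = 0.83 and 0.80; adjusted 0.95 and 0.88) and 0.71 without control replicate 3.

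**Figure D4:**
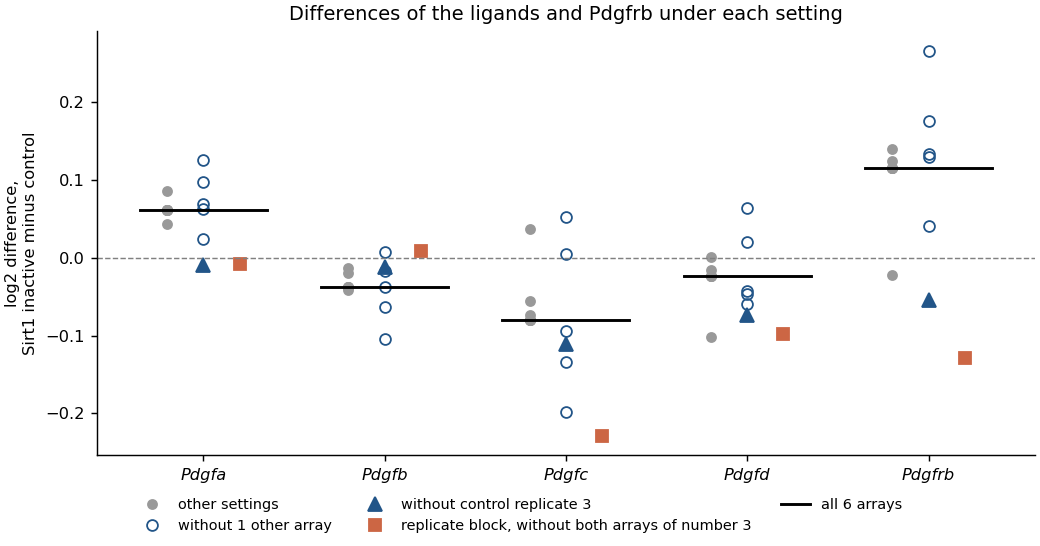
Log2 difference, Sirt1 inactive minus control, of the 4 ligands and Pdgfrb with all 6 arrays (black line) and under each other setting (points). Each gene has points on both sides of 0, and those of Pdgfrb run from -0.13 to 0.27.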

How the data were processed

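The authors made the deposited log2 values with RMA, per the series' design text and the submitters' processing notes. The log2 scale was read from the values, 3.02 to 13.6; the sources used here name neither a version nor a genome build, and coordinates are left out. GEO's platform annotation pairs 21640 of 34760 probe sets with 1 gene and 1321 with several; these 22961 were tested. For a gene with several probe sets the highest mean over 6 arrays was used. Symbols were checked in RefSeq's gene table (GRCm38.p6) by Entrez identifier: 21553 matched, 0 changed. The table held 0 columns of other samples.

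Sirt1 inactive minus control was fitted with limma 3.58.1 (R 4.3.3), two-sided, Benjamini-Hochberg adjusted over all tested probe sets at 0.05; unadjusted p-values are limma's too. The fit was tested on simulated data. No set test was run. Arrays have no read depth, and their number limits the precision: the median SE was 0.080. P-values measure only the spread between these cultures. Percentiles rank a probe set's mean among those tested.

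Equal replicate numbers were checked for pairing. Deviations from the group means correlated at 0.47, 0.36 and 0.27 for numbers 1, 2 and 3 and below 0 for every unequal pair. Subtracting the group means draws the unequal pairs below 0 when the equal ones lie above, so they are no separate evidence. The samples are thus paired by the data only, and a fit with the number as a block was run too.

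The members and the 15 gene lists (187 of 196 entries analysed) were chosen with earlier results of these data known. Named are all members, Sirt1, Pdgfra, all genes of ligand maturation and binding, up to 4 genes with the smallest p for the other signalling, VEGF and kinase lists, and for likeness the 3 genes with the highest Pearson r among named genes of at least median brightness and 0.5 times the member's range. Lists of neural, microglial and endothelial markers are given by counts and medians. Sox2 and Prom1 and the endothelial and mural genes given by percentile or r were named outside this rule.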

Additional observations from a re-analysis of the deposited data

How the results depend on the processing

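The fit was repeated under 15 other settings, and no member passed under any of them (limma, adjusted p from 0.40 to 1.0); the signs were not stable. With 1 array left out the differences ran from -0.0097 to 0.13 for Pdgfa, -0.10 to 0.008 for Pdgfb, -0.20 to 0.053 for Pdgfc, -0.074 to 0.064 for Pdgfd and -0.054 to 0.27 for Pdgfrb. Array weights turned Pdgfc to 0.037 and Pdgfrb to -0.022, subtracted array medians turned Pdgfd to 0.0015, and the replicate block without both arrays of number 3 turned Pdgfa to -0.0078, Pdgfb to 0.0082 and Pdgfrb to -0.13. In this last fit 19 probe sets passed, none of them a member, against 0 with all arrays; the cause was not tested. With the replicate block and all arrays the differences stayed as they were (0.06, -0.04, -0.08, -0.02 and 0.12), and it changed no call. It raised the probe sets at an unadjusted p under 0.05 from 830 to 1741, and they numbered 1453 without control replicate 1, 456 without Sirt1 inactive replicate 2 and 312 among probe sets of at least median brightness, a setting that leaves out Pdgfb and Pdgfd. Of the 830, 27.2% were higher, against 50.7% with array medians subtracted. Among 62 other genes, Pdgfra and Sirt1 included, 45 of 910 repeated values changed sign, and 1 passed, that of Gpr17 in the block fit without number 3.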
